A study of Mus musculus with 5 samples.

Results

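Sterol and fatty acid synthesis genes were followed in back skin of hairless albino mice on 5 one-colour CodeLink oligonucleotide arrays. The set holds 37 named enzymes and regulators, chosen by gene symbol: 24 of the sterol pathway and 13 of fatty acid synthesis, desaturation and elongation. A usable probe was present for 35 of the 37, of 18467 named genes in all, and 33 of the 35 were above the scanner's background call on at least 1 array. The symbol of 34 came from the platform annotation. Acat2 was named through its RefSeq accession, and a close copy, Acat3, lies near it on the chromosome, so that signal shared by both cannot be told apart. The Me1 probe was left out for its spot flag, and Stard4 was not analysed here.

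The arrays stand for 5 groups of 1 array each. Xpa mutant skin was taken 3 h and 24 h after UVB, and wild-type (WT) skin without UVB and at the same times after it, at a dose of 1 kJ/m2. All groups share the hairless albino strain. The labels give the mutant only as Xpa mutant, without its allele, and the age of the mice and whether an array holds 1 animal or a pool are not given in the sources used here. Unirradiated mutant skin was not analysed here, so an effect of UVB on the mutant and a genotype difference already present in unexposed skin cannot be told apart. With 1 array per group there is no test, error or replicate check, and every difference below compares 2 arrays. Replicate spots of a spiked control within an array varied by an SD of 0.13 (log2), a technical error alone.

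Sterols are built from acetyl-CoA through mevalonate, farnesyl diphosphate and squalene, and a long chain of enzymes then turns lanosterol into cholesterol. The SREBP transcription factors switch on these genes and those of fatty acid synthesis when sterols in the endoplasmic reticulum run low, with Scap as their escort and the Insig proteins as the anchors that hold them back. In skin, cholesterol, fatty acids and ceramides with very long acyl chains form the water barrier of the cornified layer, and sebaceous glands make large amounts of fatty acids, waxes and sterol lipids.

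Levels are background-corrected, quantile-normalized intensities on the log2 scale, and a difference is the log2 level on 1 array minus that on another. Between 23.5% and 25.1% of gene probes were above background on an array. The basal keratin genes Krt5 and Krt14 and the suprabasal keratin gene Krt10 were above it on all 5 arrays. For Xpa, the gene that the labels of the mutant name, the probe gave 6.64 in the mutant at 3 h and 6.42 at 24 h. Both were below background, against 7.49, 7.13 and 7.55 in WT without UVB, at 3 h and at 24 h. The WT value at 3 h was below background too, and where the probe lies relative to the mutation is not known here, so this check of the labels is weak.

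At 24 h after UVB, most of the pathway read lower on the Xpa mutant array than on the WT array. Of 33 members compared, 29 were below WT (50.5% of all genes compared were), 11 were at least 1.5-fold lower (8.18% of all genes) and 5 were at least 2-fold lower (2.66% of all genes), all counted by the log2 difference even where the fold is only a bound. None was 1.5-fold higher (6.66% of all genes) or 2-fold higher (1.6%). The 22 sterol members had a median log2 difference of -0.54 and the 11 fatty acid members of -0.33, against 0.00 for all 7104 genes, whose robust SD was 0.34. The count at 2-fold was 3 where both arrays had to be above background, 9 in the authors' deposited table and 20 with the arrays centred on spiked controls, which put the median of all genes at -0.62 and that of the sterol members at -1.16. The mutant array at 24 h was the lowest of the 5 arrays for 20 of the 33 members (21.6% of all genes).

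**Figure D1:**
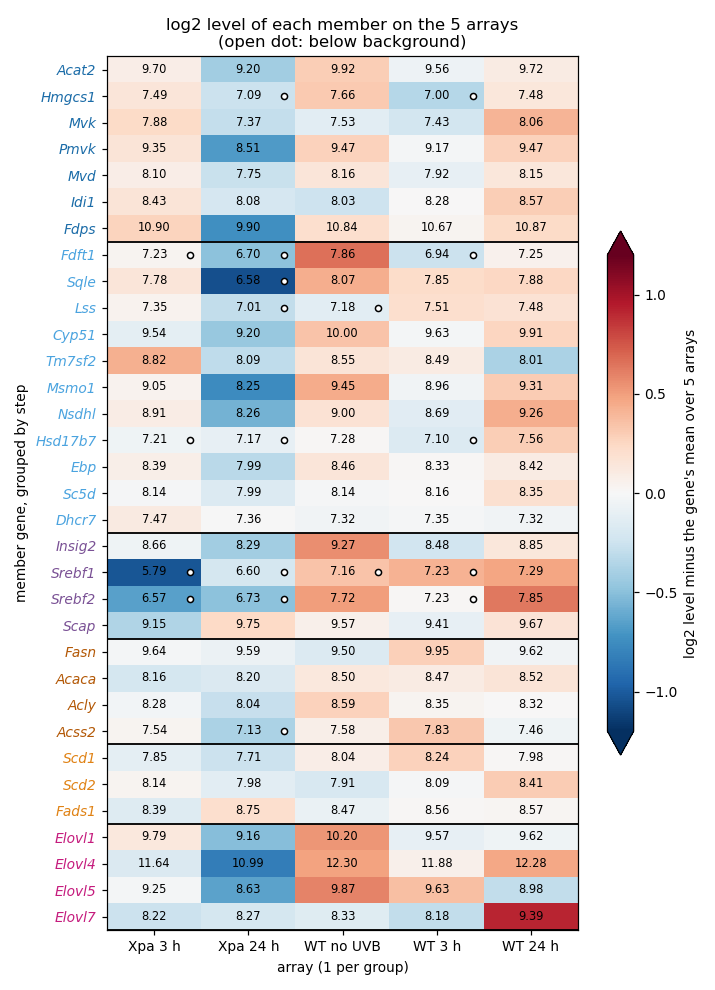
Log2 level of each of the 33 members (rows, grouped by step and coloured by role) on each of the 5 arrays (columns); colour gives the level minus that gene's mean over the arrays, and an open dot marks a value below background. The column of the Xpa mutant at 24 h is the lowest for 20 of the 33 rows, and Elovl7 is highest on the WT array at 24 h.

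The early, mevalonate part of the pathway was lower throughout at 24 h. All 7 members were below WT on the mutant array (50.5% of all genes were), with a median log2 difference of -0.52. Fdps, which makes farnesyl diphosphate, read 10.90 in the mutant at 3 h and 9.90 at 24 h, against 10.84, 10.67 and 10.87 in WT without UVB, at 3 h and at 24 h (the order kept for all genes). Only the mutant array at 24 h stood away from the others, 1.95-fold below WT at that time. Pmvk, the phosphomevalonate kinase, read 9.35 and 8.51 on the mutant arrays, against 9.47, 9.17 and 9.47 in WT. Its difference at 24 h was 1.94-fold, and the 4 other arrays lay close together. Mvk, the mevalonate kinase, read 7.88 and 7.37 in the mutant, against 7.53, 7.43 and 8.06 in WT, so that the WT array at 24 h was high and the mutant array of that time was near the unirradiated level (1.62-fold lower than WT at 24 h). Hmgcs1, the synthase that opens the route to mevalonate, read 7.49 and 7.09 in the mutant, against 7.66, 7.0 and 7.48 in WT. Its values on the mutant array at 24 h and the WT array at 3 h were below background, which makes the difference at 24 h at least 1.30-fold. For Acat2, Mvd and Idi1, which make acetoacetyl-CoA, isopentenyl diphosphate and its isomer, the differences at 24 h lay between -0.52 and -0.40. Other Acat2 probes gave -0.45 and 0.15, the last from values below background on both arrays.

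Among the squalene and later sterol steps, 9 of 11 members were lower on the mutant array at 24 h (50.5% of all genes were), with a median of -0.48. Sqle, the squalene epoxidase that controls flux into sterols, read 7.78 in the mutant at 3 h and 6.58, below background, at 24 h, against 8.07, 7.85 and 7.88 in WT. It was at least 1.79-fold lower at 24 h, with a log2 difference of -1.30, the largest of the sterol members. Msmo1, which removes methyl groups from the sterol ring, read 9.05 and 8.25 in the mutant, against 9.45, 8.96 and 9.31 in WT (2.08-fold lower at 24 h). Nsdhl, the dehydrogenase of the same demethylation, read 8.91 and 8.26 in the mutant, against 9.0, 8.69 and 9.26 in WT, and its log2 difference of -1.0 was just short of the count at 2-fold. For these 3 genes the mutant array at 24 h was the lowest of all. Cyp51, the lanosterol demethylase, read 9.54 and 9.20 in the mutant, against 10.00, 9.63 and 9.91 in WT, a difference at 24 h of 1.63-fold. A further Cyp51 probe gave -0.69 for the same difference, beside -0.71, but it was below background in the mutant at 24 h, and in WT at 3 h. Fdft1, the squalene synthase, was above background only on the WT arrays without UVB (7.86) and at 24 h (7.25) and read 7.23 and 6.70 in the mutant and 6.94 in WT at 3 h.

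The remaining late steps moved less. Lss, Hsd17b7, Ebp and Sc5d had log2 differences between -0.48 and -0.35 at 24 h. Lss and Hsd17b7 were below background in the mutant then, and at least 1.35-fold and 1.31-fold lower. The exceptions were the reductases Dhcr7, which completes cholesterol in its last step, with 0.04, and Tm7sf2, with 0.08. Tm7sf2 read 8.82 and 8.09 in the mutant, against 8.55, 8.49 and 8.01 in WT, so it was low on both arrays at 24 h.

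The regulators were mostly dim. Srebf2, the SREBP gene of sterol synthesis, read 6.57 and 6.73 in the mutant, both below background, against 7.72, 7.23 and 7.85 in WT, of which the value at 3 h was below background. It was at least 1.75-fold lower in the mutant at 24 h (log2 difference -1.11), but its other probes gave 0.01 and -0.54, both below background on both arrays, so the call rests on 1 of 3 probes. Srebf1, the SREBP gene tied to fatty acid synthesis, was above background only on the WT array at 24 h (7.29) and read 5.79 and 6.6 in the mutant and 7.16 and 7.23 in WT without UVB and at 3 h, which bounds its difference at 24 h at 1.19-fold or more. Insig2 read 8.66 and 8.29 in the mutant, against 9.27, 8.48 and 8.85 in WT (1.47-fold lower at 24 h). Its other probe, above background on all 5 arrays, gave -0.27 for that difference. Scap went the other way, with 9.15 and 9.75 in the mutant against 9.57, 9.41 and 9.67 in WT, a log2 difference of 0.08 at 24 h. Insig1 was below background on every array.

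Fatty acid synthesis genes and elongase genes all read below WT at 24 h (50.5% of all genes did), and the difference between these groups was not tested. The substrate and synthesis genes Fasn, Acaca, Acly and Acss2 encode fatty acid synthase, acetyl-CoA carboxylase, ATP citrate lyase and acetyl-CoA synthetase. They had differences between -0.33 and -0.04 (median -0.30), and 0 of the 4 were at least 1.5-fold lower (8.18% of all genes). Acss2 was below background in the mutant at 24 h, which makes its difference at least 1.26-fold. A dimmer Fasn probe, below background in the mutant at 24 h, gave -0.30 where the brighter gave -0.04. The desaturase genes Scd1 and Scd2 had -0.27 and -0.43 and Fads1, which acts on polyunsaturated chains, 0.18. Fads2 was below background on every array. The 4 elongase genes had a median of -0.79, and 2 of them were at least 1.5-fold lower (8.18% of all genes).

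Elovl4, the elongase gene of the ultra-long fatty acids of barrier ceramides, read 11.64 and 10.99 in the mutant, against 12.30, 11.88 and 12.28 in WT. It was 2.44-fold lower in the mutant at 24 h, the lowest of its 5 values. Elovl7, an elongase of saturated chains, read 8.22 and 8.27 in the mutant, against 8.33, 8.18 and 9.39 in WT, so that the WT array at 24 h alone was high (2.18-fold lower in the mutant at 24 h). A dimmer Elovl7 probe showed another pattern, with 8.13 and 7.10 in the mutant (7.10 being below background) against 8.16, 8.30 and 8.09 in WT, where the mutant array at 24 h alone was low. The probes thus gave -1.12 and -0.98 for the genotype difference at 24 h but 1.06 and -0.07 for WT at 24 h over unirradiated skin. Elovl1, which extends saturated and monounsaturated chains, read 9.79 and 9.16 in the mutant, against 10.20, 9.57 and 9.62 in WT (1.38-fold lower at 24 h). Elovl5, which extends polyunsaturated chains, read 9.25 and 8.63 in the mutant, against 9.87, 9.63 and 8.98 in WT, low at 24 h in both genotypes.

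Genes of the same pathways outside the set showed the same direction at 24 h. Of 35 such genes listed, 22 were compared, 18 were below WT (50.5% of all genes) and 5 were at least 2-fold lower (2.66% of all genes), with a median of -0.49. Those 5 were Elovl3 (4.04-fold) and Elovl6 (3.67-fold), further elongase genes, Hacd2 (2.82-fold) and Hsd17b12 (2.25-fold), which encode the dehydratase and ketoreductase of the elongation cycle, and Soat1, which esterifies cholesterol (at least 2.48-fold). Elovl6 read 11.13 and 9.05 in the mutant, against 11.65, 11.41 and 10.92 in WT, so the mutant array at 24 h stood far below the rest. Elovl3 read 9.30 and 8.19 in the mutant, against 9.27, 8.72 and 10.20 in WT, the lowest and the highest value both falling at 24 h.

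**Figure D2:**
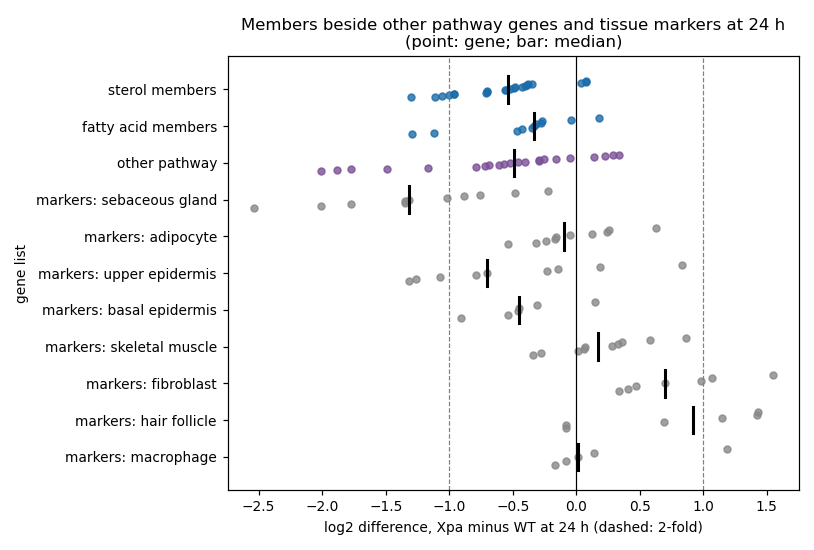
Log2 difference of the Xpa mutant from WT at 24 h (x axis) for each gene compared (points) in the members, the other pathway genes and 8 marker lists (rows), with each list's median as a bar. Sebaceous gland markers had the lowest median, -1.32, and the medians of fibroblast and hair follicle markers were 0.70 and 0.92.

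Sebaceous gland and upper epidermis markers were lower on the same array. All 11 sebaceous gland markers compared were below WT at 24 h (50.5% of all genes were), with a median of -1.32. At least 2-fold lower were 7 of them (2.66% of all genes). Of these, Awat2, Far2 and Soat1 were below background on the mutant array, so their folds are bounds. The wax synthesis gene Far2 had a difference of -2.54 (at least 3.82-fold), and the fatty acid hydroxylase gene Fa2h and the lipid droplet gene Cidea of -1.35 each. Soat1, Elovl3 and Scd3 are on this list and on that of other pathway genes. Scd3 was below background on both arrays at 24 h and so was not compared here. The summed level of the 14 sebaceous markers measured was 15193.5 and 9696.5 intensity units in the mutant, against 19293.6, 15285.7 and 17609.4 in WT. Most of it came from Krt79, a keratin of the gland and its duct, and without it the sum was 3884.3 and 2384.9 in the mutant, against 4779.8, 3976.6 and 5256.9 in WT. Of the 14, 10 and 7 were above background in the mutant, against 11, 10 and 11 in WT. Mc5r and Muc1 of this list were below background on every array. Upper epidermis markers had a median of -0.70, with 7 of 9 below WT. Past 2-fold by the log2 difference were the envelope protein genes Flg (2.51-fold lower), Lor (2.40-fold lower) and Ivl (at least 1.2-fold lower), while the keratin genes Krt2 (0.83) and Krt1 (0.19) lay above WT. The summed level of the 11 measured, of which 7 or 8 were above background on each array, was 32536.4 and 13317.2 in the mutant, against 37566.1, 29667.0 and 17239.3 in WT. Without Krt10, the brightest, it was 15706.6 and 7654.7 in the mutant, against 20736.3, 16441.2 and 10992.9 in WT. Basal epidermis markers had a median of -0.45, adipocyte markers of -0.10, skeletal muscle markers of 0.17, macrophage markers of 0.01, fibroblast markers of 0.70 and hair follicle markers of 0.92. In whole skin, fewer cells of a type and less RNA per cell cannot be told apart, and the part of these compartments in the members' difference was not tested.

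At 3 h the mutant and WT arrays were close for these genes, and most sterol members lay above the median of all genes. None of 29 members compared was 1.5-fold higher (3.95% of all 6863 genes) or lower (5.09%), and so none was past 2-fold (1.12% higher and 0.991% lower). Sterol members had a median of 0.15, with 13 of 18 above WT (51.7% of all genes), but of -0.06 centred on spiked controls, with all genes then at -0.19. The fatty acid members had a median of -0.23, with 8 of 11 below WT (48.2% of all genes), against 0.01 for all genes. All 7 mevalonate step members were above that median, from 0.15 to 0.49. Hmgcs1 (at least 1.34-fold) and Mvk (1.37-fold) were the highest of them. Fasn, Acaca, Acss2, Scd1 and Elovl5 had the lowest values, between -0.39 and -0.29. For Fasn this rests on the brighter probe (-0.31), since the dimmer, above background on both arrays, gave -0.02. For Srebf1 and Srebf2, both arrays were below background on the brightest probe, and a dimmer Srebf2 probe read 6.53 in the mutant, below background, against 7.23 in WT, above it. The further Cyp51 probe read 7.43 in the mutant and 6.24, below background, in WT. Its log2 difference was 1.19, where the brighter probe gave -0.08. The arrays of 3 h differed most in hair follicle markers, with a median of 1.15 and 4 of 8 at least 2-fold higher (1.12% of all genes). Skeletal muscle markers had 0.39, adipocyte markers 0.28 (9 of 9 above WT), macrophage markers 0.10, sebaceous gland and fibroblast markers -0.07 each, basal epidermis markers -0.09 and upper epidermis markers -0.22. Their part was not tested.

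**Figure D3:**
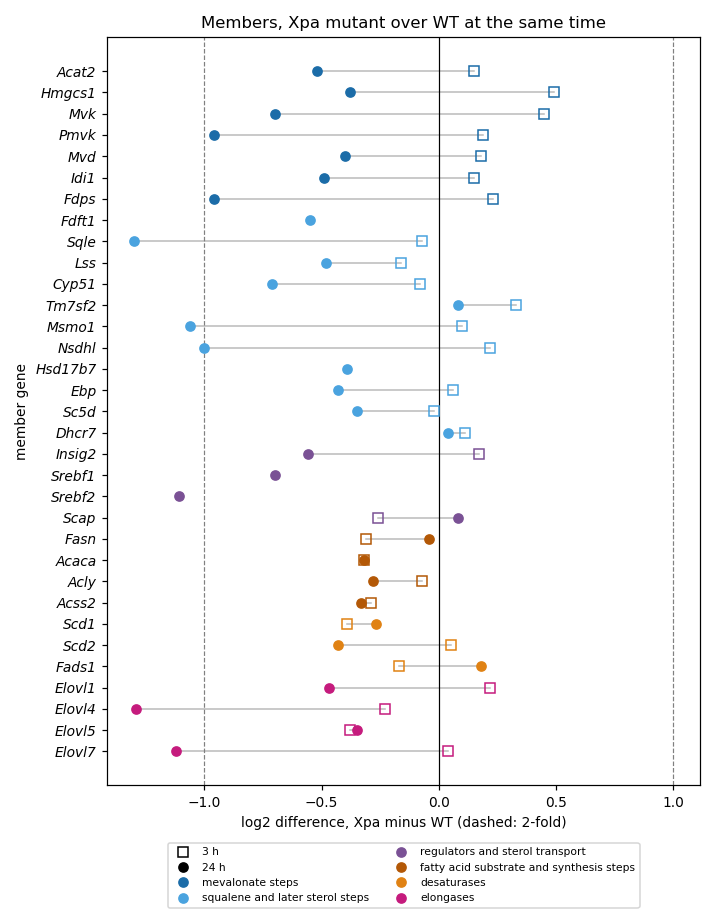
Log2 difference of the Xpa mutant from WT (x axis) at 3 h (open squares) and at 24 h (filled circles) for each member (rows, coloured by role), with dashed lines at 2-fold; genes below background on both arrays of a time have no point there. Mevalonate step members lie right of the median of all genes, 0.01, at 3 h and left of that of 24 h, 0.00.

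**Figure D4:**
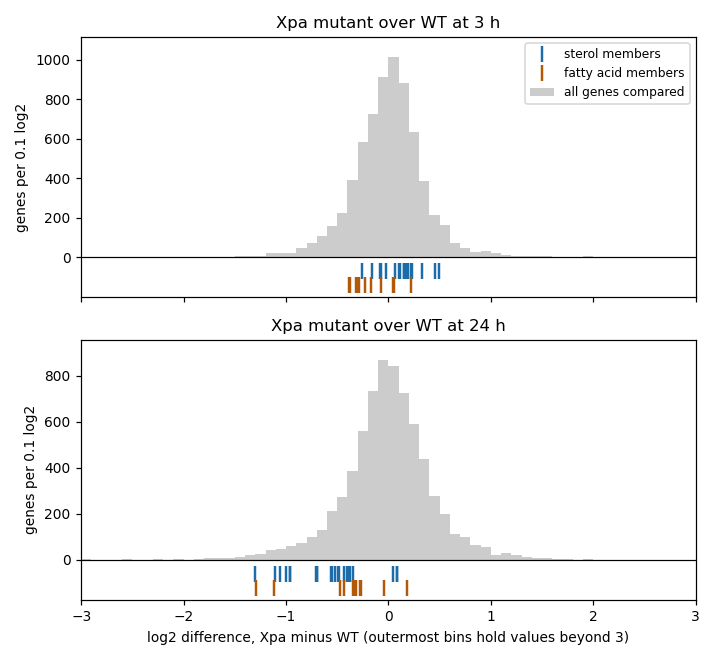
Number of genes (y axis) by log2 difference of the Xpa mutant from WT (x axis, bins of 0.1) at 3 h and 24 h, with ticks for the sterol and fatty acid members below each histogram. At 24 h most ticks sit left of the centre of all genes, with medians of -0.54 and -0.33, and at 3 h on both sides of it.

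For sterol members, the change from 3 h to 24 h showed the same contrast within each genotype. On the brightest probe of each gene, the fatty acid substrate and synthesis genes had medians of -0.15 in the mutant and -0.18 in WT. Their median for the mutant over WT was -0.30 at 3 h and at 24 h. These medians depend on the Fasn probe used. For 24 h over 3 h in the mutant, its dimmer probe, below background at 24 h, gave -0.61 where the brighter gave -0.05. In WT the dimmer gave -0.33 and the brighter -0.32. In the mutant, sterol members had a median of -0.39 at 24 h over 3 h, 17 of 18 being lower (47.1% of all genes), and fatty acid members of -0.16. Of 29 members 1, Sqle (at least 1.67-fold), was at least 2-fold lower by its log2 difference (3.77% of all genes were) and 0 were higher (2.44%). A dimmer Elovl7 probe, below background in the mutant at 24 h, gave -1.03 where the brighter gave 0.05. In WT, the sterol median was 0.27, with 19 of 22 higher at 24 h (52.8% of all genes), and the fatty acid median 0.01. Of 33 members 1, Elovl7, was at least 2-fold higher (2.09% of all genes) and 0 lower (2.22%). The dimmer Elovl7 probe, above background on both arrays, gave -0.21 where the brighter gave 1.21. A further Cyp51 probe, below background in WT at 3 h, gave 1.31 where the brighter gave 0.28. The change in the mutant minus that in WT was taken over members above background on all 4 irradiated arrays. It had a median of -0.64 for 15 sterol members, 14 of them below 0. For 10 fatty acid members the median was -0.11, with 6 below 0, and for 4782 genes -0.01, with 50.7% below 0. For 24 h over 3 h in the mutant, hair follicle markers had a median of -1.30, sebaceous gland markers of -1.02, adipocyte markers of -0.79, upper epidermis markers of -0.77, skeletal muscle markers of -0.69, basal epidermis markers of 0.11, macrophage markers of 0.54 and fibroblast markers of 0.66 (7 of 7 higher). In WT, sebaceous gland markers had a median of 0.30 (9 of 11 higher), macrophage markers of 0.70, basal epidermis markers of 0.03, fibroblast markers of -0.17, upper epidermis markers of -0.18, adipocyte markers of -0.24, skeletal muscle markers of -0.61 (10 of 10 lower) and hair follicle markers of -1.0. Their part was not tested. Of 22 other pathway genes compared, 6 were at least 2-fold lower by the log2 difference in the mutant at 24 h over 3 h (3.77% of all genes). They were Elovl6 (4.23-fold), Hsd17b12 (2.24-fold), Hacd2 (2.17-fold), Elovl3 (2.16-fold), Acacb, another acetyl-CoA carboxylase gene (at least 2.29-fold), and Thrsp, a gene tied to lipogenesis (at least 1.84-fold). In WT, 2 of 23 compared were at least 2-fold higher by the log2 difference (2.09% of all genes) and 1 lower (2.22%). Elovl3 was 2.80-fold and the sterol exporter gene Abcg1 at least 1.28-fold higher, and Thrsp at least 1.79-fold lower. These comparisons and those by genotype are built from the same 4 arrays, so they are not separate evidence.

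In WT skin the members changed little after UVB. At 3 h, 0 of 32 members were at least 2-fold higher (2.27% of all genes were) or lower (1.26%). The further Cyp51 probe, below background in WT at 3 h, gave -1.22 where the brighter gave -0.38. Sterol members had a median of -0.21, with 17 of 21 below unirradiated skin (54.2% of all genes), and fatty acid members of -0.03, against -0.03 for all genes. Past 1.5-fold, 4 members were lower (6.35% of all genes) and 0 higher (6.58%). They were Fdft1 (at least 1.73-fold), Insig2 (1.73-fold, but -0.49 by its other probe, short of 1.5-fold), Hmgcs1 (at least 1.51-fold) and Elovl1 (1.54-fold). Elongases were all lower, from -0.62 to -0.15, but the dimmer Elovl7 probe gave 0.14. Fasn had the highest difference, 0.44 (0.28 by its dimmer probe). Sebaceous gland markers had a median of -0.15 (10 of 11 lower), basal epidermis markers of -0.38 (6 of 6 lower), fibroblast markers of -0.48, upper epidermis markers of -0.35, adipocyte markers of -0.23, skeletal muscle markers of -0.17, macrophage markers of 0.58 and hair follicle markers of 1.39. Their part was not tested.

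At 24 h WT sterol members were back near the unirradiated level. Their median was 0.00 over 22 genes, 11 on either side of 0, or 0.22 centred on spiked controls, with all genes then at 0.21, and that of fatty acid members was -0.02 over 11. Of 33 members 1, Elovl7 (2.09-fold, but -0.07 by its dimmer probe), was at least 2-fold higher (2.45% of all genes) and 0 lower (2.22%). Mvk and Idi1 were 1.45-fold higher each, and Elovl5 was 1.85-fold, Fdft1 1.53-fold, Elovl1 1.49-fold and Tm7sf2 1.45-fold lower. Scd3, a sebaceous desaturase gene outside the set, was at least 1.88-fold lower. The largest marker differences were in macrophages, with a median of 1.26 (5 of 5 higher), and skeletal muscle, with -1.04 (10 of 10 lower, 49.7% of all genes). Fibroblast markers had -0.60, adipocyte markers -0.49, upper epidermis markers -0.42, basal epidermis markers -0.25, hair follicle markers 0.22 and sebaceous gland markers 0.24. Their part was not tested. Both WT comparisons share the unirradiated array, and the WT array at 24 h enters the genotype comparison at 24 h with the opposite sign.

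**Figure D5:**
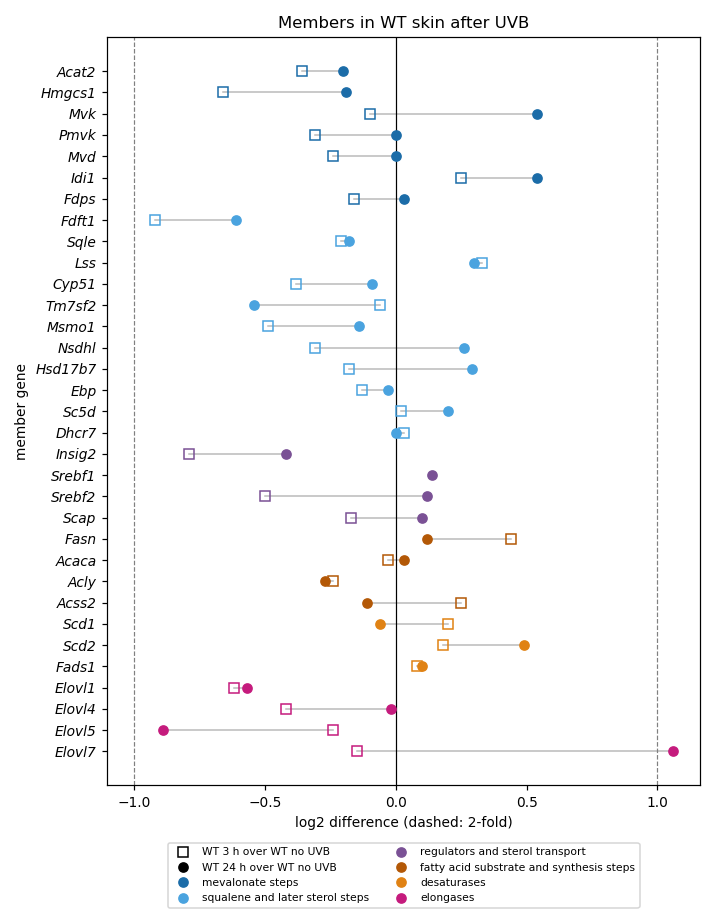
Log2 difference from unirradiated WT skin (x axis) of WT skin at 3 h (open squares) and 24 h (filled circles) for each member (rows, coloured by role), with dashed lines at 2-fold. Elovl7 at 24 h, at 1.06, is the one value past 2-fold.

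Promoter sequences are given because many members were low together on 1 array. RefSeq promoters on GRCm38.p6, running from 250 bases before to 50 bases after a transcription start, were at hand for 30 members (40 starts). They were searched on both strands for CCAAT, the box bound by NF-Y, for GGGCGG, a box of Sp1, and for TCACNCCAC, a form of the sterol regulatory element that SREBP binds. At least 1 start held CCAAT in 18 of 20 sterol members (90%) and in 7 of 10 fatty acid members (70%), against 42.4% of 6491 genes above background on at least 1 array and 41.1% of all 27025 genes. GGGCGG was present in 19 of 20 sterol members (95%) and 7 of 10 fatty acid members (70%), against 66.4% and 38.2%. TCACNCCAC was present in 1 member, Hmgcs1, against 1.46% and 1.44% of genes. A match is a run of letters, not a bound site, and the number of starts per gene was not adjusted for.

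Capitals mark CCAAT or its complement ATTGG and in Hmgcs1 also TCACCCCAC, in sequences written 5′ to 3′ along the gene. Msmo1 and Nsdhl were among the lowest sterol members at 24 h, Hmgcs1 holds the sterol element, and Fasn is shown as a gene with CCAAT boxes whose difference at 24 h was -0.04 (-0.30 by its dimmer probe).
Msmo1, chr8:64733529-64733828, minus strand: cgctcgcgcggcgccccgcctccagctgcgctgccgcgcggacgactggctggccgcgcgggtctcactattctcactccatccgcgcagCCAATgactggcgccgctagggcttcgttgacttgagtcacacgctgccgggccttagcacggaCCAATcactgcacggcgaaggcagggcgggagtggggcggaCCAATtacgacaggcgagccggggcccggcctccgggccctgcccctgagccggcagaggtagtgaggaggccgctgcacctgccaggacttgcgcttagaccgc
Nsdhl, chrX:72918271-72918570, plus strand: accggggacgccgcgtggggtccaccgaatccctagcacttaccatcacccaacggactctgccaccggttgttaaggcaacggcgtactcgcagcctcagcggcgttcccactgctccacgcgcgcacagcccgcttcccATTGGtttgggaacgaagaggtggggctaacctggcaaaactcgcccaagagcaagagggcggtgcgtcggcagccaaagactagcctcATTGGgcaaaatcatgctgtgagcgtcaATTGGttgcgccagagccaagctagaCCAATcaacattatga
Hmgcs1, chr13:119690101-119690400, plus strand: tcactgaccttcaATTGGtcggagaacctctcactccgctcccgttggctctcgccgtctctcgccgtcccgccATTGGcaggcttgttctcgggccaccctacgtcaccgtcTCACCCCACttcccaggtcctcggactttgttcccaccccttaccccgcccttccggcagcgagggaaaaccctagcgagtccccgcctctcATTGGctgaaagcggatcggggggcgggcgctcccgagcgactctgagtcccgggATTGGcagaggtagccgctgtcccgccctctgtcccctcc
Fasn, chr11:120824498-120824797, minus strand: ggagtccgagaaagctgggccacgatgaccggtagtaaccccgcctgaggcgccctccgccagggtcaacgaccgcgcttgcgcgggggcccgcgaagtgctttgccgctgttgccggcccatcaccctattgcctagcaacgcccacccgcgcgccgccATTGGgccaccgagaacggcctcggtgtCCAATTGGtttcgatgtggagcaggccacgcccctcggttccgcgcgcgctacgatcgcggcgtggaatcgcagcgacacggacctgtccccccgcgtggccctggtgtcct
Msmo1 held 3 such boxes, Nsdhl 4, Hmgcs1 4 and Fasn 3, a pair of which overlap in CCAATTGG. GGGCGG was present 2 times in Msmo1, 1 time in Nsdhl, 3 times in Hmgcs1 and 0 times in Fasn. Elovl7, whose call at 24 h was also past 2-fold, had 0 CCAAT boxes and 3 of GGGCGG at its 1 start.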

How the data were processed

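Total RNA of each group was hybridized to 1 Cy5-labelled array, per the labels. The deposited scanner tables give the intensity of each spot and its local background, quantified with CodeLink Expression Analysis 5.0.0.31312 per the file headers. The deposited series matrix, an alternative here, holds intensity on a linear scale that the authors had normalized, with software that the sources do not name.

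The local background was removed by normexp with an offset of 50, in limma 3.58.1 under R 4.3.3. Of 34967 gene probes, 126 masked and 98 irregular or P-flagged on any array were left out, and 34743 were quantile normalized and taken to log2. Probes were named through the platform annotation (21471 with 1 symbol, 678 with several, not used) or a RefSeq accession (533), and 12061 stayed unnamed. A gene is read from its brightest probe. A gene was compared when at least 1 of its 2 arrays lacked the low-signal flag. Counts use a log2 difference of 1 (2-fold). For a dimmer value below background the fold is a bound ("at least"), against the higher of its own value and the lowest signal above background on that array. The number of arrays limits the precision, and no test was possible.

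The steps were tested on simulated data, in which only bright gene probes were changed, each by more than 2-fold. Smaller changes, and changes of probes near background, were not simulated, so the check does not cover many members. Members and lists were chosen with earlier results of these data known. All members are accounted for, and those above background with a log2 difference of at least 0.58 in any of 6 comparisons (18 genes) are given on every array. Other pathway genes are named from 1 (2-fold) up. Analysis used Python 3.11.15, numpy 2.4.6 and pandas 2.3.3.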

Additional observations from a re-analysis of the deposited data

Results flagged for a closer look

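The median of the sterol members went opposite ways between groups under the same contrast. For the Xpa mutant over WT it was -0.54 at 24 h and 0.15 at 3 h, and for 24 h over 3 h it was -0.39 in the mutant and 0.27 in WT. Both pairs of values come from the same 4 arrays, and the difference was not tested, since each group has 1 array.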

How the results depend on the processing

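Each of 12 medians was recomputed under 8 alternatives and each of 6 counts under 9, 1 of them, centring on 28 spiked control probes, chosen after seeing the data, and 118 of 150 values stayed near those reported (a median within the spot SD of 0.13, a count within 1.5 times). Over the other 7 alternatives that bear on a median the sterol median for the mutant over WT at 24 h ran from -0.69 (the authors' deposited table) to -0.45, and for 24 h over 3 h in the mutant from -0.54 (that table) to -0.37. The fatty acid median for the mutant at 24 h over 3 h was -0.33 with all probes of a gene averaged. Spiked controls read 0.26 above their mean on the mutant array at 24 h and 0.31 below it on the WT array at 24 h (-0.31), so centring on them moved the median of all genes to -0.62 for the mutant over WT at 24 h, -0.19 at 3 h, 0.33 for WT at 24 h over 3 h and 0.21 over unirradiated skin. Sterol medians then were -1.16, -0.06, 0.56 and 0.22, and fatty acid medians -0.94, -0.38, 0.33 and 0.18. The sterol median at 3 h and the fatty acid median for WT at 24 h over unirradiated skin changed sign; the second also ran from -0.07 to 0.04 over the other alternatives. This centring shifts all genes of an array alike, so the members' distance from all genes is fixed by its construction.

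The count of members past 2-fold for the mutant over WT at 24 h, 5, was 3 without background correction, 9 in the authors' deposited table, 8 with a common 75th percentile, 3 above background on both arrays, 11 at 1.5-fold and 20 centred on spiked controls, all lower. For the mutant at 24 h over 3 h, 1 became 0 without background correction and above background on both arrays, 2 in the authors' deposited table, with the 75th percentile and centred on spiked controls, and 10 at 1.5-fold. For WT at 24 h over unirradiated skin it was 0 without background correction and with probes averaged, and 3 at 1.5-fold; over 3 h it was 0 with probes averaged and 4 at 1.5-fold. For WT at 3 h the count of 0 was 1 in the authors' deposited table and centred on spiked controls, and 4 at 1.5-fold. For the mutant over WT at 3 h it was 1 with no filter on dim probes. The cause was not tested. Of all genes past 2-fold, the share higher was 37.6% for the mutant over WT at 24 h, against 1.41% centred on spiked controls. It was 53.1% at 3 h, against 26.3% so centred and 76.9% without background correction. For the mutant at 24 h over 3 h it was 39.3%, against 26.1% so centred. In WT it was 64.3% at 3 h, against 49.6% so centred, 51.8% in the authors' deposited table and 78.9% without background correction; 52.5% at 24 h, against 78.3% so centred; and 48.5% for 24 h over 3 h, against 86.6% so centred. No paired analysis was possible because each group has 1 array. Signal over background limits the dim members Srebf1, Srebf2, Fdft1, Hsd17b7, Insig1 and Fads2.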
